A study of Mus musculus with 4 samples.

Results

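The replication-dependent histone genes were followed in mouse brain endothelial cells with and without endothelial PD-1. Members were the genes whose symbol begins with Hist1h, Hist2h, Hist3h or Hist4h, and 29 of the 21578 genes in the joined tables met this rule. They comprised 5 H1, 2 H2A, 6 H2B, 6 H3 and 10 H4 genes. GENCODE M21 annotates 70 genes of the same names (6 H1, 20 H2A, 19 H2B, 12 H3 and 13 H4), and 41 of them have no row in the tables used here.

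RNA sequencing was performed on brain endothelial cells of C57BL/6 mice at postnatal day 0, with 2 libraries of Pd1fl/fl mice, whose Pd1 gene carries loxP sites, and 2 libraries of Pd1cKO-Tie2 mice, which carry the same floxed gene together with Tie2-Cre. The floxed alleles are thus shared by both genotypes, and no Cre-only library was analysed here. Tie2-Cre is driven by an endothelial promoter that is also active in blood-forming cells and their descendants. Cells were sorted with antibodies to CD31, an endothelial surface protein, and CD45, a leukocyte surface protein, and whether RNA was taken directly after sorting is not given in the sources used here. The labels do not say that libraries of one genotype came from separate animals, so the p-values measure the spread between these libraries only. The second Pd1cKO-Tie2 column of the tables is numbered 2, a number no Pd1cKO-Tie2 label has, and it was used as a library of that genotype.

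Replication-dependent histone genes supply the H2A, H2B, H3 and H4 proteins around which newly copied DNA is wrapped, and the H1 linker histones that bind DNA between nucleosomes. Most lie side by side in clusters, most lack introns, and their mRNAs are made mainly while DNA is being replicated. Unlike other mRNAs, the typical histone mRNA ends just after a conserved stem-loop that is bound by the protein SLBP, and carries no poly(A) tail, although several of these genes also give longer, polyadenylated transcripts in cells that have left the cell cycle. Growing brain vessels of newborn mice contain dividing endothelial cells.

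Library totals ranged from 13715837 to 24147311 counts, and a floor of 3 counts corresponded to 0.124 to 0.219 CPM, the count scaled to the library's total. Across all genes, 15909 passed the filter on low counts and were tested, and 640 of them met the criterion of the study's methods, a change of at least 2-fold with p of 0.05 or less (224 higher and 416 lower in Pd1cKO-Tie2). None had an adjusted p under 0.05 by edgeR's quasi-likelihood test, in which 1016 genes had an unadjusted p of 0.05 or less and the smallest adjusted p was 0.735, whereas DESeq2 gave 114 genes with an adjusted p under 0.05. Pdcd1, which encodes PD-1, had 32 counts in the first Pd1fl/fl library and 0 in the other 3 libraries, so its counts did not separate the genotypes. All 12 endothelial markers were present, and their summed level was 10990 to 11990 CPM in Pd1fl/fl and 14260 to 15180 CPM in Pd1cKO-Tie2. The 8 microglia markers summed to 1911 to 2341 CPM in Pd1fl/fl and 724 to 1611 CPM in Pd1cKO-Tie2, and 8 neutrophil markers summed to 912 CPM in the first Pd1fl/fl library against 1.32 to 55.4 CPM in the other 3 libraries.

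The stem-loop was located first, because it marks where the usual histone mRNA ends. In the annotated transcripts of GENCODE M21, a 16-base pattern was searched on the transcripts' own strand, which consists of the rising stem GGNNCT, the loop TNTN and the falling stem AGNNCC, with the 6 bases of the rising stem paired with the 6 of the falling stem. It occurred in 46 of 70 histone genes (65.7%) and in 61 of all 55450 annotated genes (0.11%). The stem-loops of the members that the level and genotype results below turn on follow, with the 16 bases of the pattern in capitals and up to 5 flanking bases in lower case. The 2 last sequences belong to genes with no row in the tables used here and show that the same 16 bases occur there.
Hist1h1c: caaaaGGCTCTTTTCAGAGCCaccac
Hist3h2ba: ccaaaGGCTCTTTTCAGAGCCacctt
Hist3h2a: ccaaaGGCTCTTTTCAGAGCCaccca
Hist4h4: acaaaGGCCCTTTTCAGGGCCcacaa
Hist1h4d: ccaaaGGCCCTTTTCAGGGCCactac
Hist1h4i: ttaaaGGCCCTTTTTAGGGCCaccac
Hist1h4j: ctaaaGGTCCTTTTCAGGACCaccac
Hist1h2ab: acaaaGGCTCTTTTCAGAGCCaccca
Hist1h2ap: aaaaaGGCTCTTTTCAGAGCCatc

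In GRCm38 coordinates these patterns lie at chr13:23739512-23739527 on the plus strand (Hist1h1c), chr11:58949349-58949364 on the plus strand (Hist3h2ba), chr11:58955172-58955187 on the plus strand (Hist3h2a), chr6:136803998-136804013 on the minus strand (Hist4h4), chr13:23581950-23581965 on the plus strand (Hist1h4d), chr13:22040966-22040981 on the minus strand (Hist1h4i), chr13:21735437-21735452 on the plus strand (Hist1h4j), chr13:23751572-23751587 on the plus strand (Hist1h2ab) and chr13:21833029-21833044 on the minus strand (Hist1h2ap). Each lies in the annotated 3′ UTR. The distance from the end of the coding sequence was 27 bases in Hist1h1c, 31 in Hist3h2ba and 57 in Hist4h4. The sequence followed the histone class in part. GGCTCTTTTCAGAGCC was found in 10 H2A, 8 H2B, 5 H3 and 3 H1 genes, whereas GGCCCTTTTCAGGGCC was found in 7 H4 genes, and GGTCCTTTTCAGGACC, the stem-loop of Hist1h4j, in 2 H4 genes.

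The gene models of several of the members printed above ran far past this stem-loop. In the deposited gene spans, 840 bases followed the pattern in Hist1h1c, 169 in Hist3h2ba, 1643 in Hist3h2a, 2445 in Hist4h4, 330 in Hist1h4i and 385 in Hist1h4j. In Hist1h4d only 25 bases followed it in the deposited span, although the model in GENCODE M21 has 770. In GENCODE M21 the models of Hist1h2ab and Hist1h2ap stop 11 and 3 bases after it.

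All 5 of the members with the highest mean CPM (Hist1h1c, Hist3h2ba, Hist2h2be, Hist3h2a and Hist4h4) also carried AATAAA, the most common signal for adding a poly(A) tail, within the last 40 bases of their annotated transcript. Their transcript ends are printed here with the signal in capitals. The pattern was not found in Hist2h2be, which is shown for its AATAAA only.
Hist1h1c: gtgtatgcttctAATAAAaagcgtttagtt
Hist3h2ba: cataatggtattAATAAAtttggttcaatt
Hist2h2be: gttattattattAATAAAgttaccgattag
Hist3h2a: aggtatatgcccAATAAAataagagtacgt
Hist4h4: tagaggagatgaAATAAAtac

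These hexamers lie at chr13:23740342-23740347 on the plus strand (Hist1h1c), chr11:58949507-58949512 on the plus strand (Hist3h2ba), chr3:96223717-96223722 on the plus strand (Hist2h2be), chr11:58956797-58956802 on the plus strand (Hist3h2a) and chr6:136801556-136801561 on the minus strand (Hist4h4), in the 3′ end of each transcript. On the transcripts' own strand AATAAA was found in the last 40 bases for 19713 of 55450 annotated genes (35.6%) and for 15 of 70 histone genes (21.4%). Among the histone genes it occurred in 10 of the 29 members and in 5 of the 41 genes without a row. The deposited span equalled the annotated model in 7 of these 10 members. The 10 members with AATAAA held 90.1 to 93.5% of all histone counts in each library, and the median of their mean levels was 3.13 CPM against 0.457 CPM for the other 19 members. These levels were not scaled to gene length, and a longer gene collects more counts. Per kilobase of counted length (given below), Hist1h4d, which lacks AATAAA, had a mean of 8.31 CPM per kb. Hist1h1c (79.6) and Hist3h2ba (31.7) lay above it, and Hist2h2be (3.72), Hist3h2a (2.77) and Hist4h4 (1.44) below it. How mRNA was selected for the libraries is not given in the sources used here.

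A smaller share of the histone genes than of all protein-coding genes had a row, a difference that was not tested. Of 67 protein-coding histone genes 28 were listed (41.8%), against 15565 of 21951 protein-coding genes of GENCODE M21 (70.9%). A row of the tables requires a count in both libraries of a pair or at least 5 counts in one of them. Listing differed among histone classes. It covered 5 of 6 H1 and 10 of 13 H4 genes, 6 of 12 H3 and 6 of 19 H2B genes, and 2 of 20 H2A genes. The only H2A members were Hist3h2a and Hist1h2ae.

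Listing went with the length of the annotated model beyond the stem-loop. Of the 23 genes whose longest M21 transcript runs at least 100 bases past the pattern, 17 were listed (73.9%), whereas 4 of the 23 genes with a shorter end were listed (17.4%), as were 8 of the 24 genes in which the pattern was not found (33.3%). The 100-base threshold was chosen after the values had been seen, and the nearest genes on either side of it had 74 and 108 bases. In the deposited gene spans only 11 members ran at least 100 bases past the pattern. Genes without a row have no deposited span, so their counted ends may differ from the M21 models. Listed and unlisted genes also differed in total exon length, with medians of 774 and 482 bases, and a longer gene collects more counts. They differed in uniqueness as well. The median share of a gene's 50-base stretches that also occur in another annotated gene was 30.6% for the 29 members and 67.6% for the 41 genes without a row, and 6 of 29 members against 30 of 41 unlisted genes shared at least 50% of their stretches. Overlap with another annotated gene was found for 4 of the 29 members and 22 of the 41 unlisted genes, including all 20 H2A genes of the annotation. Whether reads with several matches, or reads over overlapping genes, were counted is not given in the sources used here. The part of total length, of shared sequence and of overlap in the listing was not tested.

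Levels were also set beside the ends in the deposited gene spans, 18 of 29 of which were identical to GENCODE M21. The 11 members with at least 100 bases after the stem-loop held 85.8 to 91.3% of all histone counts in each library, and their mean levels ranged from 0.400 CPM for Hist1h3f to 124 CPM for Hist1h1c, with a median of 1.95 CPM. The 10 members with fewer bases after it (2 to 49) held 2.28 to 4.25% of the counts. Their median was 0.245 CPM, and only Hist1h4d among them, at 3.27 CPM, exceeded 1 CPM. The 8 members without the pattern held 5.12 to 10.9% of the counts. A longer end also lengthens the counted span, and per kilobase of counted length the medians were much closer, at 0.954 CPM per kb for the 11 members with at least 100 bases, 0.572 for the 10 with fewer and 0.949 for the 8 without the pattern.

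**Figure D1:**
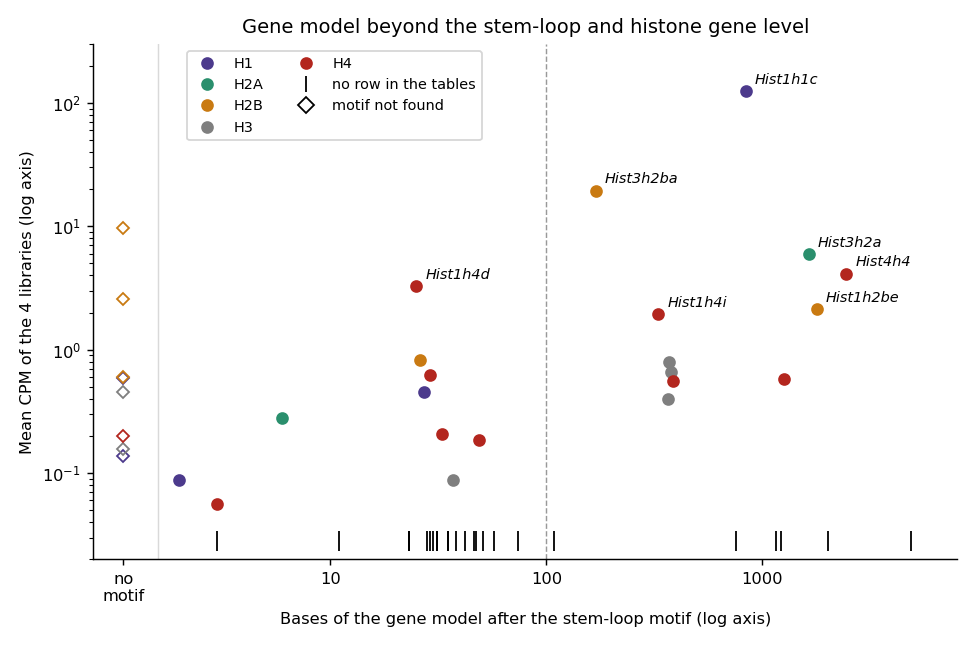
Mean level of each member over the 4 libraries (CPM, log axis) against the number of bases of its deposited gene span after the stem-loop pattern (log axis), coloured by histone class; open diamonds at the left are the 8 members without the pattern, and black ticks along the bottom are unlisted genes placed by their GENCODE M21 model. The 2 highest members, Hist1h1c and Hist3h2ba, lie right of the dashed line at 100 bases, Hist1h4d is the highest member left of it, and most black ticks lie left of it.

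A single linker histone made up most of the histone signal. Hist1h1c, which encodes linker histone H1.2, had 1738 and 1817 counts in the Pd1fl/fl libraries against 2999 and 1686 counts in the Pd1cKO-Tie2 libraries. It thereby took 67.0 to 71.6% of all histone counts in each library. Its TMM-scaled level, which was used for all levels given here, was 120.3 and 128 CPM in Pd1fl/fl against 125 and 123 CPM in Pd1cKO-Tie2. The ranges of the genotypes overlapped, with means of 124 ± 5.24 CPM and 124 ± 1.43 CPM (SD, n = 2 each). The log2 fold change of Pd1cKO-Tie2 over Pd1fl/fl was 0.0026 with an SE of 0.17 (adjusted p = 1, edgeR quasi-likelihood). Hist1h1c exceeded 91.8 to 92.6% of the listed genes in each library.

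The other H1 members were low. Hist1h1b, which encodes linker histone H1.5, had 12 and 11 counts in Pd1fl/fl against 13 and 3 counts in Pd1cKO-Tie2, or 0.831, 0.773, 0.543 and 0.219 CPM. Both Pd1cKO-Tie2 libraries lay below both Pd1fl/fl libraries, but the difference did not pass the test, with a log2 fold change of -1.05 ± 1.57 (SE, adjusted p = 1, edgeR). Hist1h1e, which encodes H1.4, had 1 and 2 counts in Pd1fl/fl against 23 and 9 in Pd1cKO-Tie2. The groups did not overlap, and the gene was below the filter and so was not part of the main edgeR test. Its annotated model overlaps that of Hist1h2be on the same strand, and its deposited span ends 27 bases after the stem-loop. Hist1h1t, the testis H1, had 0 to 5 counts, and Hist1h1a, which encodes H1.1, had 8 counts in the first Pd1fl/fl library and 0 elsewhere.

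The 2 H2A members were Hist3h2a and Hist1h2ae. Hist3h2a had 42 and 94 counts in Pd1fl/fl against 94 and 141 counts in Pd1cKO-Tie2, which corresponded to 2.91, 6.61, 3.93 and 10.3 CPM. Libraries differed within each genotype by more than the genotype means did (4.76 ± 2.62 against 7.12 ± 4.51 CPM), and the log2 fold change of 0.58 ± 0.83 (SE) did not pass the test (adjusted p = 1, edgeR). The Hist3h2a model overlaps Trim17 on the same strand and Gm44313 on the other. Hist1h2ae had 0 and 6 counts in Pd1fl/fl against 8 and 5 in Pd1cKO-Tie2 and was not part of the main edgeR test.

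H2B was the second most abundant class, and its signal came mainly from Hist3h2ba and Hist2h2be. Hist3h2ba had 206 and 313 counts in Pd1fl/fl against 513 and 276 counts in Pd1cKO-Tie2. Its levels were 14.3 and 22 CPM in Pd1fl/fl against 21.4 and 20.2 CPM in Pd1cKO-Tie2. The first Pd1fl/fl library was the low one, and the genotypes overlapped (log2 fold change 0.20 ± 0.38 (SE), adjusted p = 1, edgeR).

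In Hist2h2be one library was low. The Pd1fl/fl libraries held 177 and 171 counts, against 263 and 51 counts in Pd1cKO-Tie2. This gave 12.2, 12, 11 and 3.73 CPM, so that the second Pd1cKO-Tie2 library held less of this mRNA than each of the other 3 libraries. The groups did not overlap, but the log2 fold change of -0.72 ± 0.66 (SE) did not pass the test (adjusted p = 1, edgeR). Without the second Pd1cKO-Tie2 library the log2 fold change was -0.14, and without the first it was -1.69.

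Hist1h2bc had 45 and 38 counts in Pd1fl/fl against 28 and 45 in Pd1cKO-Tie2 (3.12, 2.67, 1.17 and 3.29 CPM), with overlapping genotypes and a log2 fold change of -0.38 ± 1.11 (SE, adjusted p = 1, edgeR). Hist1h2be had 0 and 57 counts in Pd1fl/fl against 33 and 43 in Pd1cKO-Tie2, and Hist1h2bg had 9 and 12 against 23 and 12. Of these only Hist1h2bg did not overlap between genotypes on the CPM scale, with 0.623 and 0.844 CPM against 0.961 and 0.877 CPM (adjusted p = 1, edgeR). The pseudogene Hist3h2bb-ps had 1 to 18 counts.

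The H3 members were all near the limit of detection. The highest, Hist1h3e, had 11 and 9 counts in Pd1fl/fl against 15 and 16 in Pd1cKO-Tie2, or 0.761, 0.633, 0.626 and 1.17 CPM. Hist2h3c2 had 10 and 0 counts against 19 and 16, and Hist1h3i had 8 and 9 against 15 and 0. Hist1h3e and Hist2h3c2 were tested and did not pass, with log2 fold changes of 0.36 ± 1.48 and 1.48 ± 2.09 (SE, both with adjusted p = 1, edgeR). The H3 genes encode near-identical proteins, and their sequences shared much. Of the 50-base stretches, 73.4% in Hist1h3e, 63.5% in Hist2h3c2 and 87.6% in Hist1h3i also occur in another annotated gene, so the assignment of reads to single H3 genes is uncertain. Hist1h3f, below the filter, had 16 and 3 counts in Pd1fl/fl against 5 and 1 in Pd1cKO-Tie2. At 1.11 and 0.211 CPM against 0.209 and 0.0731 CPM its groups did not overlap, with the Pd1cKO-Tie2 libraries below by a narrow margin. Hist1h3h had 0 to 8 counts and Hist1h3a 0 to 5.

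Both members that met the study's criterion were H4 genes. H4 pairs with H3 to form the centre of the nucleosome, and its genes encode nearly the same protein. Hist4h4, an H4 gene outside the large clusters, on chromosome 6 (GRCm38 chr6:136801553-136804415, minus strand), had 10 and 0 counts in the Pd1fl/fl libraries against 209 and 97 counts in the Pd1cKO-Tie2 libraries. Its levels were 0.692 and 0 CPM in Pd1fl/fl against 8.73 and 7.09 CPM in Pd1cKO-Tie2, with means of 0.346 ± 0.490 and 7.91 ± 1.16 CPM (SD, n = 2 each). Both Pd1cKO-Tie2 libraries were far above both Pd1fl/fl libraries. The log2 fold change was 4.48 ± 1.65 (SE), with an unadjusted p of 0.0365 and adjusted p = 0.753 in edgeR's quasi-likelihood fit across all genes, so the gene met the study's criterion but not an adjusted threshold. The size of the change depended on the Pd1fl/fl libraries, with a log2 fold change of 3.50 without the second, which had 0 counts, and a fitted value of 10.1 without the first, which left 0 counts on that side and so depends on the prior count. In DESeq2 the unadjusted p was 0.00154 and the adjusted p was 0.123. The call was lost when the first Pd1cKO-Tie2 library was left out, at a log2 fold change of 4.32 and an unadjusted p of 0.102, when the second was left out, at 4.63 and 0.0763, and with limma-voom, at 5.66 and 0.0835. Of the 50-base stretches of Hist4h4, 8.52% also occur in another annotated gene, and no other gene overlaps it.

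Hist1h4j moved in the opposite direction. Its counts were 14 and 18 in Pd1fl/fl and 0 in both Pd1cKO-Tie2 libraries, or 0.969 and 1.26 CPM against 0. With the floor of 3 counts taken in each Pd1cKO-Tie2 library, the Pd1fl/fl mean was 6.48-fold above the mean of these floors. The lower of the Pd1fl/fl libraries was 5.63-fold above it. Hist1h4j met the criterion with an unadjusted p of 0.0280 (adjusted p = 0.738, edgeR). With the block for column number the unadjusted p was 0.146, with DESeq2 0.0511, with no low-count filter 0.0746 and with limma-voom 0.105, and the call was lost whichever of the 4 libraries was left out, at 0.0899 to 0.138. Counting error is large at these counts, and 24.6% of its 50-base stretches also occur in another annotated gene.

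Hist1h4d and Hist1h4i were the next most abundant H4 genes. Hist1h4d had 64 and 28 counts in Pd1fl/fl against 67 and 53 in Pd1cKO-Tie2 (4.43, 1.97, 2.80 and 3.87 CPM), with overlapping genotypes and a log2 fold change of 0.06 ± 0.98 (SE, adjusted p = 1, edgeR). Hist1h4i had 36 and 42 counts in Pd1fl/fl against 18 and 22 in Pd1cKO-Tie2. At 2.49 and 2.95 CPM against 0.752 and 1.61 CPM its genotypes did not overlap, with the Pd1cKO-Tie2 libraries below, but the log2 fold change of -1.21 ± 1.21 (SE) did not pass the test (adjusted p = 1, edgeR).

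The remaining H4 members fell below the filter on low counts. Hist1h4c had 2 and 5 counts in Pd1fl/fl against 34 and 8 in Pd1cKO-Tie2, which did not overlap. Several others were seen in part of the libraries. Hist2h4 had 25 counts in the second Pd1fl/fl and 13 in the first Pd1cKO-Tie2 library and 0 in the other 2, Hist1h4f had 20 counts in the first Pd1cKO-Tie2 library alone, and Hist1h4k had 11 counts in the second alone. Hist1h4h had 1 to 6 counts and Hist1h4m 0 to 2.

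**Figure D2:**
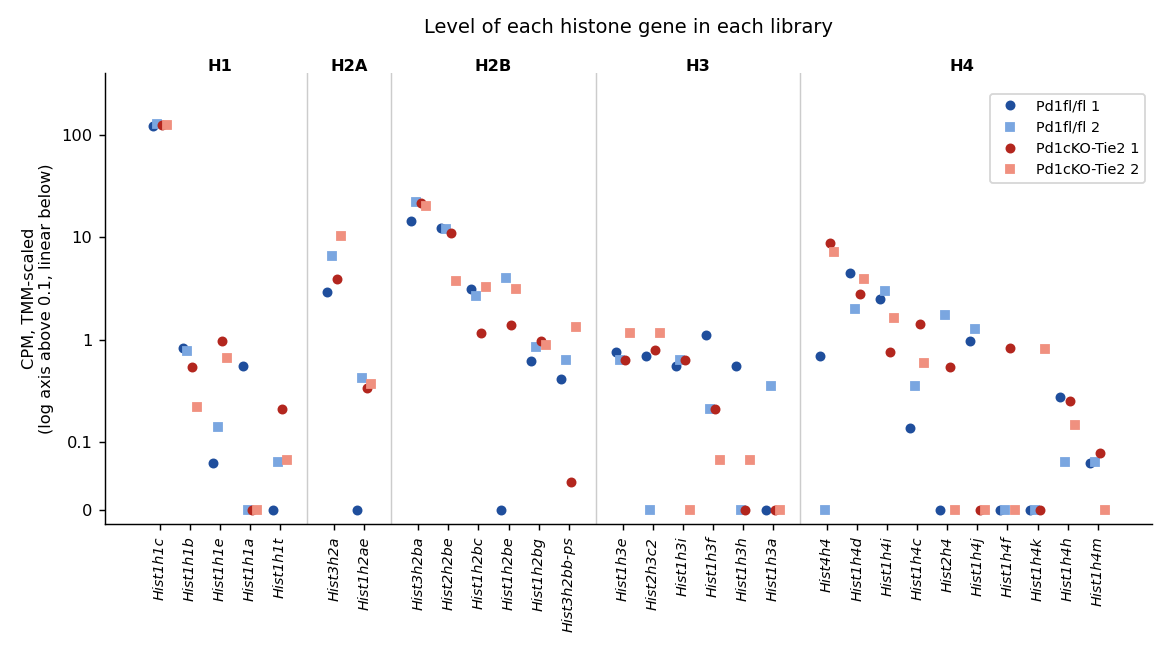
TMM-scaled level (CPM) of all 29 members in the 4 libraries, grouped by histone class and ordered within each class by mean level; the axis is logarithmic above 0.1 CPM and linear below. Hist1h1c lies between 120.3 and 128 CPM in all 4 libraries, and Hist4h4 at 8.73 and 7.09 CPM in Pd1cKO-Tie2 against 0.692 and 0 CPM in Pd1fl/fl.

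Levels were compared between genes per kilobase of counted length, taken as the smaller of the deposited span and the exon length in GENCODE M21. Hist1h1c was highest with 77.1 to 81.9 CPM per kb over the 4 libraries. Hist3h2ba followed with 23.2 to 35.8 CPM per kb, and Hist1h4d with 5.01 to 11.3 CPM per kb. These 3 genes did not overlap with each other over the 4 libraries. Below them the ranges overlapped, with 1.42 to 4.68 CPM per kb for Hist2h2be, 1.35 to 4.80 for Hist3h2a, 1.03 to 4.06 for Hist1h4i, 1.01 to 2.85 for Hist1h2bc and 0 to 3.05 for Hist4h4, so these genes had no stable order. The remaining 21 members had means of 0.121 to 1.73 CPM per kb. Hist1h2bc and Hist1h2be have introns, and their deposited spans stop short of the 3′ end in GENCODE M21. Their exon length was used all the same, so their values per kilobase may be too low.

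Of the 29 members, 14 passed the filter on low counts. The other 15 were tested only with DESeq2 and with no filter. Hist4h4 and Hist2h3c2 passed the filter through their Pd1cKO-Tie2 libraries alone and Hist1h4j and Hist1h1b through their Pd1fl/fl libraries alone, so the counts that follow describe the tested members only. Of the 14 tested, 2 met the criterion, 1 higher (Hist4h4) and 1 lower (Hist1h4j), against 4.02% of all tested genes in either direction, 1.41% higher and 2.61% lower. No member had an adjusted p under 0.05 by edgeR, and 2 had an unadjusted p of 0.05 or less, against 6.39% of all tested genes. With DESeq2, 1 of 29 met the criterion, against 4.34% of all genes, and none had an adjusted p under 0.05. The groups did not overlap for 7 of the 14 (3 higher and 4 lower), or 50%, against 35.8% of all tested genes. All 4 members that passed the filter through one genotype alone are among these 7, and of the other 10 tested members 3 did not overlap. The log2 fold change was above 0 for 9 and below 0 for 5 members, with a median of 0.11 against a median of 0.00 over all tested genes. Over the 14 members, the median absolute log2 difference was 0.361 for the Pd1fl/fl pair, 0.643 for the Pd1cKO-Tie2 pair and 0.562 to 0.803 for the 4 pairs of unlike genotype. Over all tested genes the mean of these medians was 0.463 within and 0.483 between genotypes, and over the members 0.502 and 0.651.

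**Figure D3:**
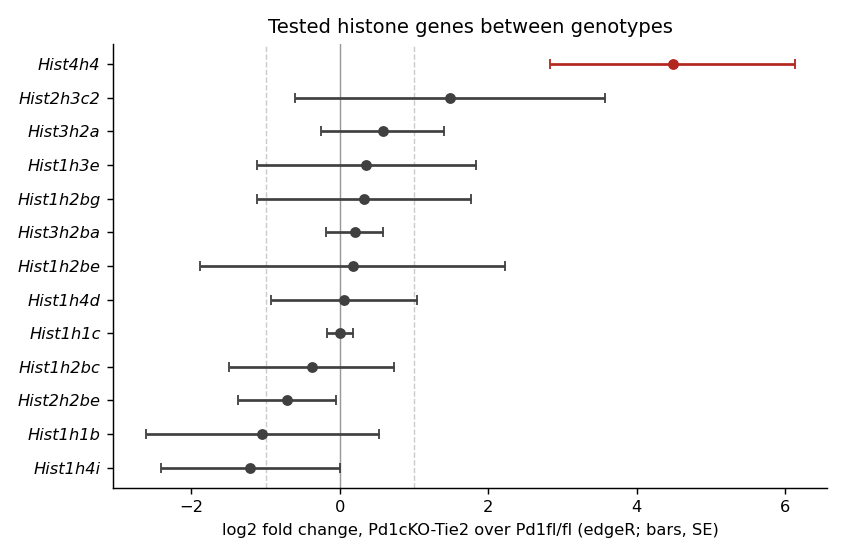
Log2 fold change of Pd1cKO-Tie2 over Pd1fl/fl for 13 of the 14 tested members (edgeR; bars are SE), with dashed lines at a 2-fold change; Hist1h4j is left out because both Pd1cKO-Tie2 libraries have 0 counts. Hist4h4 (red, 4.48 ± 1.65) lies apart, Hist1h1c has the smallest SE (0.17), and the bars of most other genes cross 0.

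Summed over all members, the genotypes overlapped. The sum was 168 and 188 CPM in Pd1fl/fl against 185 and 184 CPM in Pd1cKO-Tie2, or 0.0169 to 0.0195% of a library's counts. Means were 178 ± 14.2 and 184 ± 0.619 CPM (SD, n = 2 each) and a ratio of 1.04. A permutation test of 2 against 2 libraries cannot give a p below 0.33, so the sums were not tested. Since Hist1h1c dominated, the sum was also taken without it, and was 47.8 and 60.4 CPM in Pd1fl/fl against 59.6 and 60.7 CPM in Pd1cKO-Tie2. Without the most abundant member of each class it was 29.1 and 31.2 CPM against 24.9 and 22 CPM, and both Pd1cKO-Tie2 libraries then lay below. The H4 member left out was Hist4h4, at 0.692 and 0 CPM in Pd1fl/fl against 8.73 and 7.09 CPM in Pd1cKO-Tie2. It is the most abundant H4 member through its Pd1cKO-Tie2 libraries only. Leaving it out lowers mainly their sums, so this order does not compare the genotypes. In bulk RNA, fewer cells that express a gene and less RNA per cell cannot be told apart.

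By class, H4 was the one whose sum did not overlap between genotypes. H1 summed to 122 and 129 CPM in Pd1fl/fl against 127 and 124 CPM in Pd1cKO-Tie2, and H2B to 30.7 and 42.2 CPM against 36.0 and 32.5 CPM. H2A summed to 2.91 and 7.03 CPM against 4.26 and 10.7 CPM, and H3 to 3.67 and 1.83 CPM against 2.25 and 2.48 CPM. The H4 sum was 9.07 and 8.44 CPM in Pd1fl/fl against 15.4 and 14.1 CPM in Pd1cKO-Tie2, a ratio of 1.69. Hist4h4 alone supplied 7.63 and 0% of the H4 counts in Pd1fl/fl but 56.6 and 50.3% in Pd1cKO-Tie2. Without it the H4 sum was 8.38 and 8.44 CPM against 6.68 and 7.02 CPM, so the order of the genotypes turned.

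**Figure D4:**
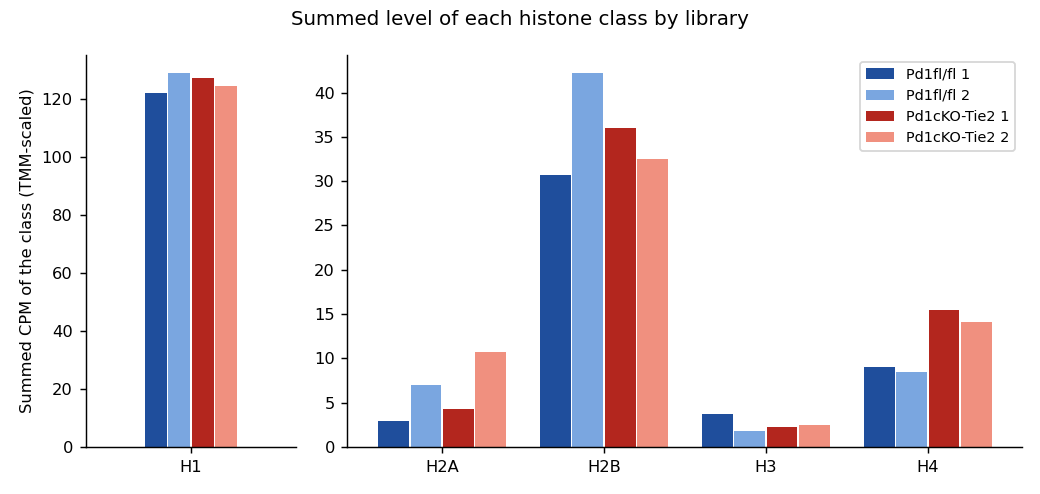
Summed TMM-scaled CPM of the members of each histone class in the 4 libraries; the H1 panel has its own vertical axis, and both axes start at 0. H1 is level at 122 to 129 CPM, and H4 is higher in both Pd1cKO-Tie2 libraries (15.4 and 14.1 CPM) than in both Pd1fl/fl libraries (9.07 and 8.44 CPM).

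Genes that work with these histones were set beside them as 5 lists. Of 133 listed genes that were tested, 4 met the criterion, or 3.01% against 4.02% of all tested genes. None had an adjusted p under 0.05 by edgeR, while 9 had an unadjusted p of 0.05 or less, against 6.39% of all tested genes. Histone variants are also made outside S phase and replace the replication-dependent proteins. Their levels summed to 4490 to 4911 CPM, most of it from H3f3b, against 168 to 188 CPM for the members. The levels of single variants spread widely. Hist1h1c, at a mean of 124 CPM over the libraries, lay between H2afv (127 CPM) and H2afx (89.5 CPM). These levels were not scaled to gene length, and how mRNA was selected is not given in the sources used here. None of the 10 tested variants met the criterion, and their median log2 fold change was 0.07. H3f3b, one of a pair of genes for the replacement histone H3.3, had 3302 and 3494 CPM in Pd1fl/fl against 3601 and 3653 CPM in Pd1cKO-Tie2, and the log2 fold change was 0.09 ± 0.09 (SE, adjusted p = 1, edgeR). H2afz, which encodes H2A.Z, had 409 and 341 CPM against 398 and 379 CPM, and H2afx, which encodes the damage-marking H2A.X, 88.0 and 90.7 CPM against 96.3 and 83.2 CPM, with overlapping genotypes in both. The smallest p among the variants belonged to H1f0, the linker histone of resting cells, with 371 and 281 CPM in Pd1fl/fl against 451 and 422 CPM in Pd1cKO-Tie2 (log2 fold change 0.42 ± 0.18 (SE), unadjusted p of 0.0580, adjusted p = 0.808, edgeR). H2afj was next, with 20.6 and 9.07 CPM against 29.1 and 20.5 CPM and a log2 fold change of 0.74 (adjusted p = 0.953, edgeR). H3f3a had 34 and 89 counts in Pd1fl/fl against 49 and 2 in Pd1cKO-Tie2, or 2.35, 6.26, 2.05 and 0.146 CPM. Its groups did not overlap, with Pd1cKO-Tie2 lower, but the log2 fold change of -1.95 ± 1.49 (SE) did not pass the test (unadjusted p of 0.240, adjusted p = 0.977, edgeR). Of its 50-base stretches, 27.1% also occur elsewhere in the annotation.

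The genes that make and process histone mRNA did not separate the genotypes. Of 18 tested, 0 met the criterion, against 4.02% of all tested genes, and 0 had an unadjusted p of 0.05 or less by edgeR, against 6.39%. The median log2 fold change was -0.11. Slbp, which encodes the stem-loop binding protein, had 157 and 114 CPM in Pd1fl/fl against 116 and 125 CPM in Pd1cKO-Tie2. Npat, which encodes the activator of histone gene transcription, had 38.6 and 65.2 CPM against 49.1 and 40.6 CPM, and Casp8ap2, whose product FLASH takes part in histone mRNA cleavage, 45.9 and 94.8 CPM against 81.1 and 49.1 CPM. All 3 overlapped between genotypes. The smallest p values in the list belonged to Cpsf2, a subunit of the cleavage complex, and Mif4gd, an SLBP partner in translation. Cpsf2 had 24.6 and 39.6 CPM against 39.0 and 45.8 CPM, and Mif4gd 74.1 and 53.7 CPM against 111 and 59.1 CPM, with unadjusted p values of 0.278 and 0.297 by edgeR.

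Among the histone chaperones, 1 of 19 tested genes met the criterion, against 4.02% of all tested genes. Chaf1a, the large subunit of the complex that places new H3 and H4 on replicated DNA, had 8.38 and 4.29 CPM in Pd1fl/fl against 15.1 and 18.1 CPM in Pd1cKO-Tie2, with a log2 fold change of 1.39 ± 0.53 (SE, unadjusted p of 0.0425, adjusted p = 0.753, edgeR). The call was lost with the block for column number, at an unadjusted p of 0.0538, without the second Pd1fl/fl library, at 0.136 and a log2 fold change of 0.99, and without the first or the second Pd1cKO-Tie2 library, at 0.0729 and 0.140. Rbbp4, a subunit of the same complex, had 148 and 151 CPM against 111 and 113 CPM. Its log2 fold change of -0.42 ± 0.17 (SE, unadjusted p of 0.0489, adjusted p = 0.773, edgeR) was under 2-fold. The genotypes did not overlap for either subunit, with Chaf1a higher and Rbbp4 lower in Pd1cKO-Tie2. The median log2 fold change of the list was 0.09.

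S phase genes, which are expressed when histone genes are, gave a median log2 fold change of -0.22 over 42 tested genes, with 10 above and 32 below 0. Over all tested genes, 7888 were above and 8021 below 0. Of the 42, 0 met the criterion as higher and 3 as lower, against 1.41% and 2.61% of all tested genes. The 3 were Hells, Wdr76 and Dtl. Hells, a chromatin remodeller, had 35.2 and 33.6 CPM in Pd1fl/fl against 13.3 and 13.2 CPM in Pd1cKO-Tie2 (log2 fold change -1.38 ± 0.31 (SE), unadjusted p of 0.00483, adjusted p = 0.735, edgeR). Wdr76 had 15.1 and 18.3 CPM against 6.22 and 6.21 CPM, and Dtl, a licensing regulator, 98.1 and 45.0 CPM against 25.5 and 32.0 CPM. Hells met the criterion whichever library was left out. The call of Wdr76 was lost without the second Pd1fl/fl library and without either Pd1cKO-Tie2 library (unadjusted p of 0.0564 to 0.0955, edgeR), and that of Dtl without the first Pd1fl/fl library, where the log2 fold change was -0.65, and without either Pd1cKO-Tie2 library (0.0510 to 0.153). Pcna, the sliding clamp of DNA polymerase, had 14.8 and 10.5 CPM against 11.6 and 17.6 CPM. Mcm2, a helicase subunit, had 141 and 85.05 CPM against 110.1 and 84.6 CPM, and Rrm2, a subunit of the enzyme that makes deoxynucleotides, 25.5 and 13.8 CPM against 18.7 and 19.3 CPM. All 3 genes overlapped between genotypes, with log2 fold changes of 0.20, -0.21 and -0.05. For G2 and M phase, 0 of 44 tested genes met the criterion, against 4.02% of all tested genes. By edgeR 3 of the 44 had an unadjusted p of 0.05 or less, against 6.39% of all tested genes. The median log2 fold change was -0.30, with 36 below 0. The 2 smallest p values in that list belonged to Tacc3 and Ckap2, both spindle proteins, with log2 fold changes of -0.97 and -0.75. Tacc3 had 38.8 and 29.9 CPM against 18.04 and 17.1 CPM, and Ckap2 49.1 and 45.0 CPM against 27.7 and 28.3 CPM. Top2a and Mki67 are common proliferation markers. Top2a had 104.9 and 85.1 CPM against 81.3 and 45.2 CPM, and Mki67 40.4 and 38.4 CPM against 28.6 and 42.2 CPM, with log2 fold changes of -0.58 and -0.16.

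The sums of the cell cycle lists were highest in the first Pd1fl/fl library and lowest in the second Pd1cKO-Tie2 library. The S phase sum was 2229 and 1609 CPM in Pd1fl/fl against 1670 and 1528 CPM in Pd1cKO-Tie2, and the G2 and M phase sum 2112 and 1808 CPM against 1850 and 1362 CPM. Relative to the 4-library mean, S phase stood at 1.27 in the first Pd1fl/fl library and at 0.869 to 0.950 in the other 3, whereas the histone sum was 0.927 in that library and 1.01 to 1.04 in the other 3. The library with the highest S phase sum thus had the lowest histone sum. This order was not kept without the most abundant member of each class, where that library had the second highest histone sum (29.1 CPM, against 31.2, 24.9 and 22 CPM). The members left out include Hist4h4, whose removal lowers mainly the Pd1cKO-Tie2 sums.

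**Figure D5:**
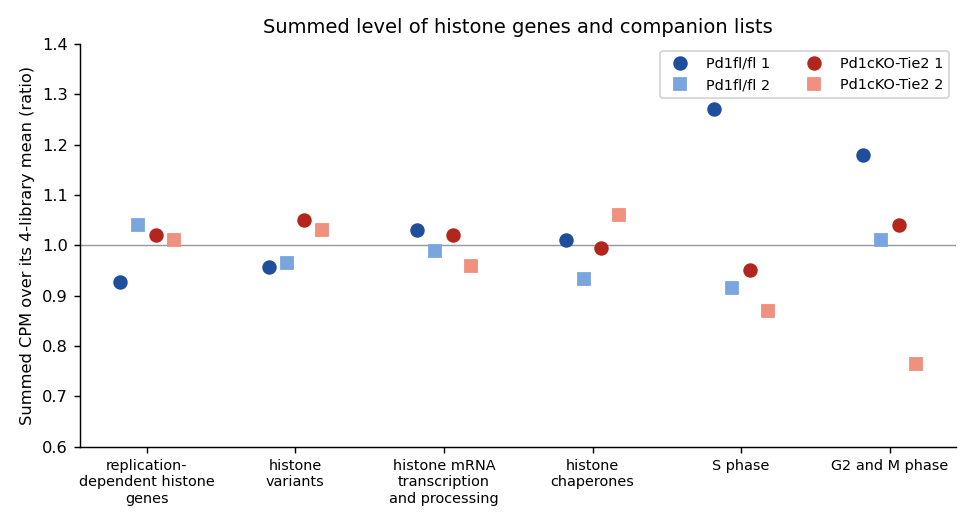
Summed CPM of the histone genes and of 5 companion lists in each library, divided by the mean of the 4 libraries (ratio; the vertical axis runs from 0.6 to 1.4). The first Pd1fl/fl library has the highest S phase value (1.27) and the lowest histone value (0.927), and the second Pd1cKO-Tie2 library has the lowest G2 and M phase value (0.764).

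Cell type markers moved with genotype and with single libraries beside these results. All 12 endothelial markers were higher and all 8 microglia markers lower in Pd1cKO-Tie2 by fitted fold change, and the groups did not overlap for 12 and 7 of them, against 17.7% of all tested genes higher and 18.1% lower. Radial glia and astrocyte markers summed to 805 and 827 CPM in Pd1fl/fl against 536 and 403 CPM in Pd1cKO-Tie2, with 6 of 7 lower. For 5 of the 7 the groups did not overlap, with Pd1cKO-Tie2 lower, against 18.1% of all tested genes. Mural cell markers summed to 5679 and 3713 CPM against 3817 and 3807 CPM, neuronal markers to 798 and 1028 CPM against 900.5 and 688 CPM, oligodendrocyte lineage markers to 131 and 68.3 CPM against 149 and 78.7 CPM, and erythroid markers to 647 and 558 CPM against 574 and 1069 CPM. The neutrophil genes Ltf, Camp and Elane had 3132, 342 and 252 counts in the first Pd1fl/fl library and 0 in the other 3. The part of these cells in the levels of Hist4h4, Hist1h4j, the other members and the companion lists, including the cell cycle lists, was not tested.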

How the data were processed

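The authors deposited 4 tables, each holding 1 Pd1cKO-Tie2 and 1 Pd1fl/fl library, with raw read counts per gene and CPM (counts scaled to the library's total). Per the labels' processing notes, Bowtie2 2.2.3, TopHat2 2.0.12, HTSeq 0.6.0 and build mm9 were named by the submitters, while the deposited gene positions are those of GRCm38. The use of strand is not given in the sources used here. The deposited CPM served only to recover library totals, and the authors' fold changes, p-values and adjusted p-values for each pair of libraries were not used.

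Tables were joined by gene identifier (10 broken lines skipped), and a gene with no row for a library, which can hold up to 4 counts, was entered as 0. This applied to 6 of the 29 members, in 1 library each. Counts were tested with edgeR 4.0.16 in R 4.3.3 (filterByExpr, TMM, quasi-likelihood F test, 2 against 2 libraries, Benjamini-Hochberg adjustment over all 15909 tested genes). DESeq2 1.42.0, limma 3.58.1 (voom), other filters and scalings, a block for the column number and leaving out each library were alternatives. The code was tested on simulated data. Floors cover counting error only.

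Annotation and sequences were taken from GENCODE M21 (GRCm38). Python 3.11.15, pandas 2.3.3 and matplotlib 3.10.9 were used. Named with values in every library were the 3 members of each class with the highest mean CPM and all members meeting the criterion, and, in each companion list, the 2 genes with the smallest p plus Slbp, Npat, Casp8ap2, Pcna, Mcm2, Rrm2, Top2a, Mki67, H3f3a, H3f3b, H2afz and H2afx. Other genes were named after their values had been seen. Members, lists and alternatives were chosen with earlier results of these data known.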

Additional observations from a re-analysis of the deposited data

How the results depend on the processing

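The number of members meeting the criterion, 2 of 14, was 1 with DESeq2, 0 with limma-voom, 1 with no low-count filter, 0 of 7 tested with at least 10 counts in every library, and 0 to 2 when 1 library was left out (1 without Pd1fl/fl 1, and 0 without either Pd1cKO-Tie2 library). It was 2 under each of the 3 other scalings. Over the companion lists the number was 4, became 7 with limma-voom, and was 5 to 12 when 1 library was left out, with 12 without the first Pd1cKO-Tie2 library. Over all genes it was 445 to 936. The median log2 fold change of the members, 0.11, was -0.0015 with at least 10 counts in every library and -0.17 to 0.23 when 1 library was left out. The log2 ratio of the summed level, 0.05, was -0.029 to 0.13 when 1 library was left out and -0.36 without the most abundant member of each class. The last value leaves out Hist4h4, which is the most abundant H4 member through its Pd1cKO-Tie2 libraries only. The causes were not tested, except that fewer members were tested under the stricter filter.

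Directions turned as follows. The log2 fold change of Hist1h1c was -0.0015 with at least 10 counts in every library, -0.0027 with upper quartile scaling and -0.059 with library size scaling. When 1 library was left out, it ranged from -0.040 to 0.048 for Hist1h1c, from -0.28 to 1.29 for Hist3h2a, from -1.30 to 0.19 for Hist1h2bc, from -0.83 to 8.30 for Hist1h2be, from -0.081 to 0.55 for Hist3h2ba, from -0.15 to 0.74 for Hist1h3e and from -0.41 to 0.76 for Hist1h4d. None of these was called in either direction, except that Hist1h2be, with 0 counts in Pd1fl/fl 1, met the criterion as higher without Pd1fl/fl 2 (unadjusted p of 0.0423, edgeR).

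With a replicate block for the column number, 1 of 14 members met the criterion, Hist4h4 (unadjusted p of 0.0261, edgeR). The labels of the genotypes share only the number 1, so the numbers do not pair the libraries, and the correlation of deviations between libraries of one number was -0.0263.

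With 2 libraries per genotype and members of a few counts each, edgeR's low-count filter leaves 14 of 29 members, and DESeq2 and the fit with no filter covered all 29. A lone library left in a genotype was assumed to vary like the other genotype's.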
